A study of Macaca mulatta with 45 samples.

Results

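Interferon response genes were examined across 3 regions of the rhesus macaque brain after 2 kinds of irradiation. They were chosen by symbol: the IFI, IFIH, IFIT, IFITM, ISG, OAS, MX, GBP, IRF and STAT families. Of 39 symbols of these families in the gene name table, 33 had a row among the 30246 gene IDs of the count table. IFI30, IFIT2, IRF9, ISG15, MX2 and OAS3 had none and were not analysed here. In the group called fWBI, the whole brain was given 40 Gy in fractions, 8 of 5 Gy each, and tissue was taken 12 months later. In the group called TBI, the total body was exposed once, to 6.75 Gy in animals 1 and 2, 7.2 Gy in animals 3 and 4 and 8.05 Gy in animal 5, and 6 to 9 years passed until necropsy. Control animals were themselves irradiated, with 10 Gy to the thorax only, and their labelled brain dose was 0.1 Gy. Each group had 5 animals, and each animal gave 1 total RNA library from the white matter (WM) of the centrum semiovale, 1 from the hippocampus (HIP) and 1 from the dorsolateral prefrontal cortex (PFC). All animals were perfused with saline, and the labels give no age or sex. fWBI and TBI differed in dose, in fractionation, in the body volume irradiated and in time since exposure, which cannot be told apart.

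Interferons are cytokines that cells release after sensing foreign or misplaced nucleic acid. Type I interferons act through receptors coupled to the kinases JAK1 and TYK2, which phosphorylate transcription factors of the STAT family. The complex of these with IRF9, which includes STAT2, switches on antiviral genes. Type II interferon, which has a receptor of its own, is a strong inducer of IRF1, of guanylate-binding proteins and of antigen presentation genes. In the brain, microglia, astrocytes and endothelial cells all carry this response. STAT3, STAT4, STAT5A, STAT5B and STAT6 serve mainly other cytokines and growth factors, so their presence among these families rests on the name and not on interferon alone.

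Library totals ranged from 6625435 to 12541507 counts with a median of 9719393. Levels are given as CPM, which scales counts by library size (TMM, on 1 scale for all 45 libraries), and in order of animal number within a group. Changes are log2 fold changes ± 1 standard error. P-values come from the quasi-likelihood test of edgeR and were adjusted by the Benjamini-Hochberg method over all genes tested; a gene was called at an adjusted p under 0.05. A total of 29 of the 33 genes passed the filter on low counts in white matter. The number was 27 for hippocampus and 28 for prefrontal cortex. IFITM5, a bone-expressed gene of its family, had 2 counts over all libraries; GBP6 had 72 and IRF4, a lymphocyte factor, 106, and none of the 3 was tested anywhere. GBP3, GBP7 and GBP6, the OAS genes and the IFIT genes have close relatives, and reads of near-identical copies could have been split among them. Among control white matter libraries, animals 1 and 3 stood apart: their mean log2 CPM over 13 pan-neuronal markers was 8.53 and 7.50, against 5.05 to 5.35 in the other 3 control libraries, so the dissections of those animals held neuronal RNA. Results for white matter are therefore also given without these 2 libraries.

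In white matter, fWBI was followed by higher levels of 14 of the 29 genes tested and lower levels of none. Over all genes tested, 8.8% were called higher and 7.86% lower in this comparison. The median log2 fold change of the 29 was 0.77, against -0.033 over all genes, and 28 of 29 had a positive value, against 45.3% of all genes. By role, both tested guanylate-binding proteins rose, as did STAT3, STAT5A and STAT6 among the STAT genes, 2 of 6 interferon regulatory factors, the DNA sensor IFI16 and 5 of 13 antiviral effectors. Every fWBI library lay above every control library for 10 of the 29, all of them among the 14 called; 6.27% of all genes tested, and 67.2% of all genes called higher, were separated in this way. In bulk tissue, more cells of a type and more RNA per cell cannot be told apart, here or in any result below.

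**Figure D1:**
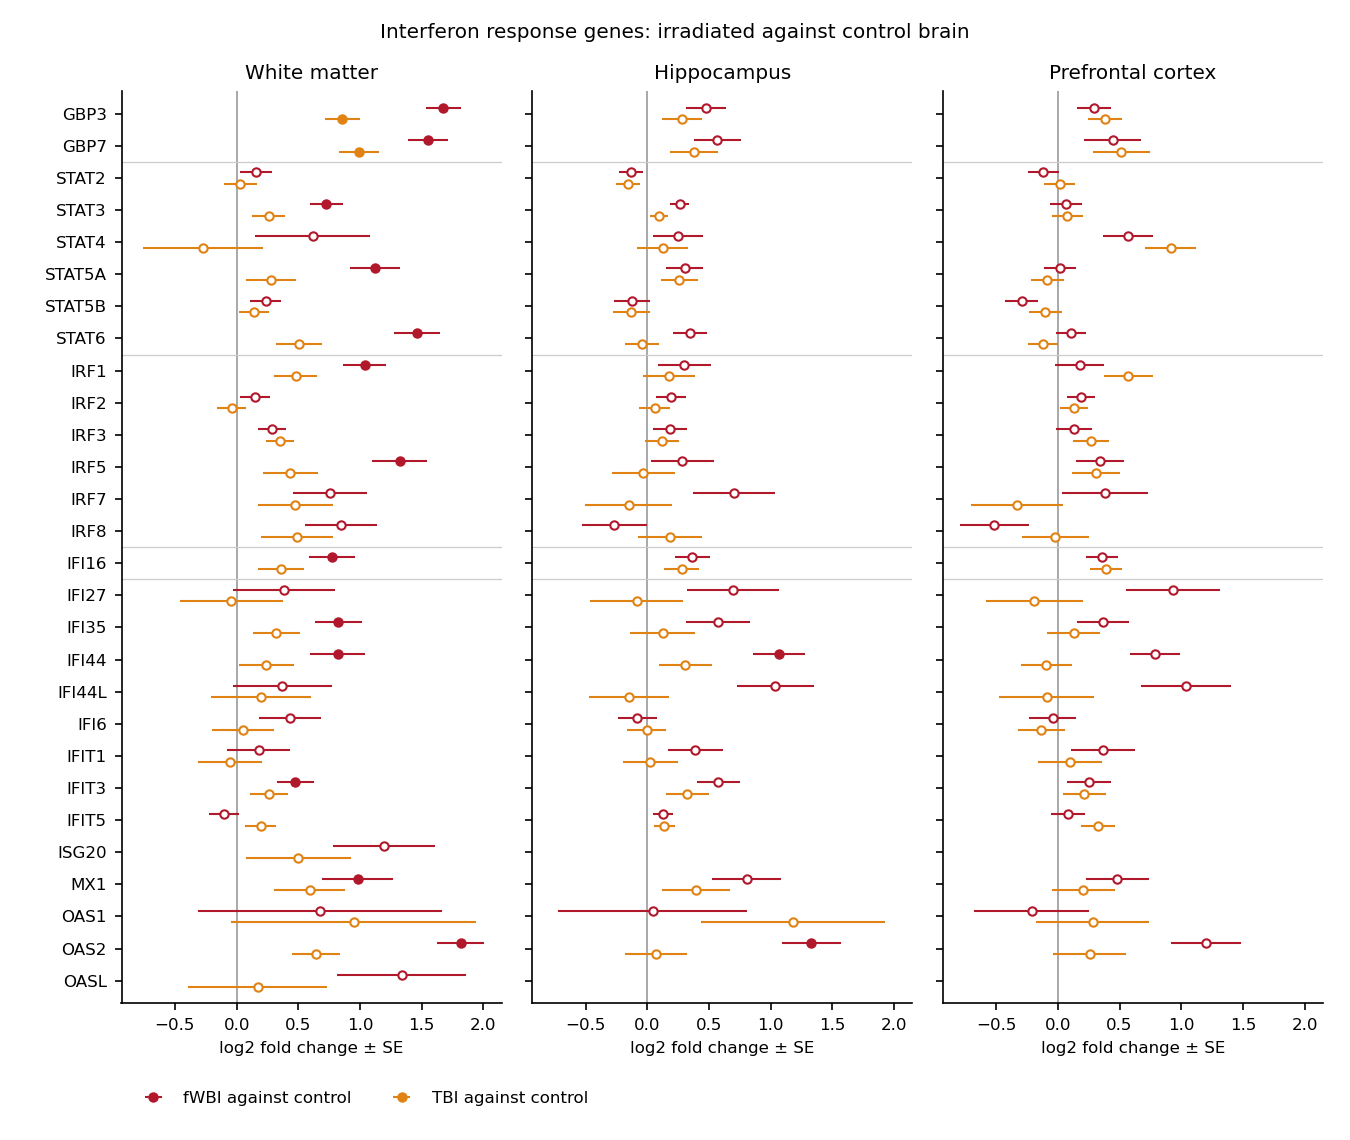
Log2 fold change of interferon response genes for fWBI against control and for TBI against control in white matter, hippocampus and prefrontal cortex, with bars of 1 standard error; filled points have an adjusted p under 0.05. In white matter filled points of every role lie to the right for fWBI, while GBP3 and GBP7 are the 2 filled points for TBI; in hippocampus OAS2 and IFI44 are filled for fWBI, and no point is filled in prefrontal cortex.

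The guanylate-binding proteins are large GTPases, strongly induced by type II interferon, that act on intracellular pathogens. GBP3 (ENSMMUG00000000662) had 57.4, 49.7, 45.2, 59.0 and 49.7 CPM in fWBI white matter, 25.6, 31.3, 26.5, 29.9 and 35.3 CPM in TBI white matter and 13.6, 22.6, 15.4, 13.8 and 16.5 CPM in control white matter. The 3 groups did not overlap: every fWBI library lay above every TBI library, and every TBI library above every control library. The log2 fold change for fWBI against control was 1.68 ± 0.14, or 3.20-fold (edgeR adjusted p = 1.74e-06).

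GBP7 (ENSMMUG00000000663) had 31.1, 41.2, 37.1, 33.0 and 52.9 CPM in fWBI white matter, 30.9, 19.4, 26.9, 24.1 and 32.0 CPM in TBI white matter and 12.9, 13.8, 13.4, 14.7 and 12.1 CPM in control white matter. Here the fWBI and TBI libraries overlapped, while both lay wholly above the control libraries, whose own values were close together. GBP7 was 1.55 ± 0.16 higher on the log2 scale in fWBI than in control white matter, 2.93-fold (edgeR adjusted p = 1.39e-05). GBP6, the third family member with a row, had 1 to 7 counts per fWBI white matter library and 0 to 3 per control white matter library and could not be tested.

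OAS2, which makes oligoadenylates in response to double-stranded RNA, had the largest called fold change of the 33 genes. OAS2 (ENSMMUG00000008505) had 20.0, 16.3, 14.6, 21.4 and 13.6 CPM in fWBI white matter, 6.00, 8.43, 7.21, 6.86 and 9.67 CPM in TBI white matter and 4.27, 6.67, 5.48, 4.05 and 3.89 CPM in control white matter. All 5 fWBI libraries lay above all TBI and control libraries, and TBI and control overlapped. The fWBI against control change was 1.82 ± 0.19 on the log2 scale, 3.52-fold (edgeR adjusted p = 1.47e-05).

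STAT2, a part of the type I complex, was not called: it averaged 126 ± 23.5 CPM in fWBI white matter and 113 ± 11.9 CPM in control white matter (SD, n = 5 each), with an interval of -0.10 to 0.42 on the log2 scale.

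STAT6, which transmits interleukin signals of allergic and alternatively activated immune cells, had 29.1, 41.8, 30.5, 39.6 and 20.8 CPM in fWBI white matter, 16.3, 16.7, 13.7, 19.8 and 17.3 CPM in TBI white matter and 12.7, 13.6, 13.1, 8.59 and 10.7 CPM in control white matter (ENSMMUG00000017527). As for GBP3, the 3 groups were fully separate in that order, with a log2 fold change of 1.46 ± 0.18 for fWBI against control (edgeR adjusted p = 6.49e-05). STAT5A, a mediator of growth factor and interleukin signals, had 25.8, 34.5, 27.9, 38.5 and 18.7 CPM in fWBI white matter, 13.4, 21.9, 14.1, 16.9 and 14.8 CPM in TBI white matter and 12.2, 15.5, 9.16, 15.1 and 14.9 CPM in control white matter (ENSMMUG00000010705). The lowest fWBI library, animal 5, lay above all controls but below the highest TBI library. STAT5A rose by 1.12 ± 0.20 on the log2 scale (edgeR adjusted p = 0.00114), while its neighbour and near relative STAT5B had 0.24 ± 0.12 (edgeR adjusted p = 0.225).

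STAT3, which is activated downstream of the interleukin receptors that drive glial reactivity, averaged 159 ± 25.9 CPM in fWBI white matter, 116 ± 13.8 CPM in TBI white matter and 96.4 ± 16.9 CPM in control white matter (SD, n = 5 each), a log2 fold change of 0.73 ± 0.13 for fWBI against control (edgeR adjusted p = 0.00143). STAT4 is the member that moved with the neuronal libraries: it had 2.25, 3.49, 3.35, 1.79 and 5.42 CPM in fWBI white matter and 5.04, 0.889, 2.69, 0.859 and 1.08 CPM in control white matter, and the 2 highest controls were animals 1 and 3. With all libraries its log2 fold change was 0.62 ± 0.47 (edgeR adjusted p = 0.432), and without control animals 1 and 3 it was 1.80 ± 0.41 (edgeR adjusted p = 0.0103).

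**Figure D2:**
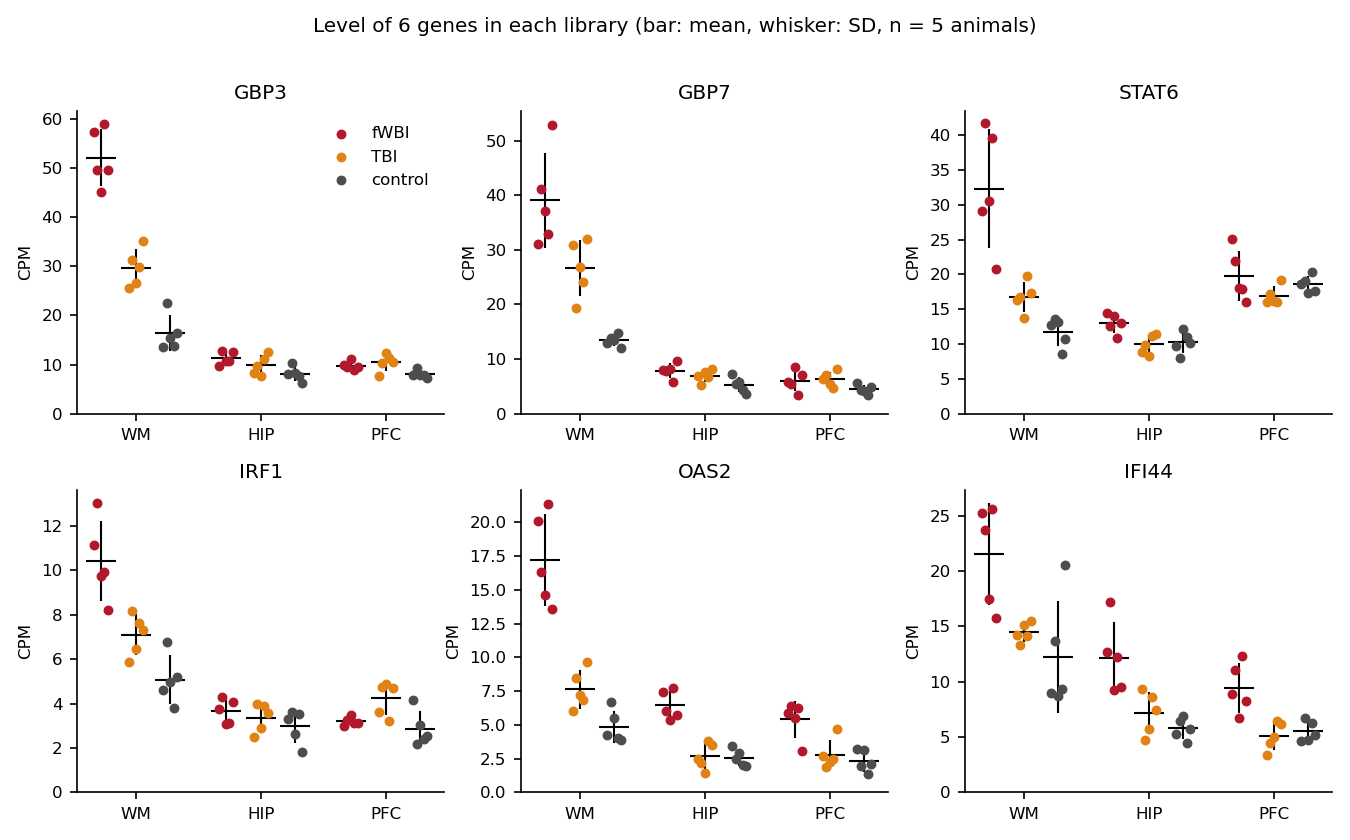
CPM of GBP3, GBP7, STAT6, IRF1, OAS2 and IFI44 in each library, by region, for fWBI, TBI and control, with the group mean and SD (n = 5). In white matter every fWBI library lies above every control library for the first 5 genes, while for IFI44 the highest control library, 20.5 CPM, lies within the fWBI range of 15.8 to 25.6 CPM.

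Among the interferon regulatory factors, IRF5 and IRF1 rose. IRF5, a mediator of Toll-like receptor signals in myeloid cells, had 18.0, 46.8, 27.1, 38.4 and 26.0 CPM in fWBI white matter, 15.1, 17.5, 15.6, 21.4 and 15.4 CPM in TBI white matter and 10.9, 13.2, 10.5, 11.4 and 16.6 CPM in control white matter (ENSMMUG00000018478). The fWBI animals spread widely, from 18.0 to 46.8 CPM, and the lowest of them overlapped the TBI range, but none overlapped the controls. Its log2 fold change was 1.32 ± 0.22 (edgeR adjusted p = 0.000670).

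IRF1, an activator of antigen presentation genes, had 11.1, 13.0, 9.73, 9.94 and 8.22 CPM in fWBI white matter, 5.88, 8.18, 6.47, 7.63 and 7.33 CPM in TBI white matter and 4.60, 6.78, 4.98, 3.81 and 5.18 CPM in control white matter (ENSMMUG00000008100). All fWBI libraries lay above all others, and the TBI and control libraries overlapped. Its log2 fold change for fWBI against control was 1.04 ± 0.18 (edgeR adjusted p = 0.000710).

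IRF8, which mouse microglia need for their development, just missed the threshold, with 27.5 ± 9.77 CPM in fWBI white matter and 15.3 ± 5.07 CPM in control white matter (SD, n = 5 each; edgeR adjusted p = 0.0569). Its fWBI values ran from 13.6 CPM in animal 5 to 39.9 CPM in animal 2, and animal 5 lay within the control range. IRF3 and IRF7, which switch on the interferon genes themselves, had log2 fold changes of 0.29 ± 0.12 and 0.76 ± 0.30 with adjusted p of 0.105 and 0.0975 in edgeR. IRF2, known as an antagonist of IRF1, had 0.15 ± 0.12 (edgeR adjusted p = 0.455).

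IFI16, a sensor of DNA, averaged 52.3 ± 13.3 CPM in fWBI white matter and 30.7 ± 7.60 CPM in control white matter (SD, n = 5 each), and its log2 fold change was 0.77 ± 0.19 (edgeR adjusted p = 0.00985). Of the 13 antiviral effectors tested, OAS2, IFI35, IFI44, MX1 and IFIT3 rose. IFI35 had 10.7 to 14.2 CPM in fWBI white matter and 4.60 to 10.0 CPM in control white matter, with no overlap, and rose by 0.83 ± 0.19 on the log2 scale (edgeR adjusted p = 0.00645). MX1, a GTPase that acts on viral nucleocapsids, had 47.9 to 115 CPM in fWBI white matter and 23.0 to 51.3 CPM in control white matter, and rose by 0.98 ± 0.29 on the log2 scale (edgeR adjusted p = 0.0292). The groups met at one end: the lowest fWBI library of MX1, animal 3, lay within the control range, and control animal 4 at 23.0 CPM lay far below the other 4 controls, at 43.3 to 51.3 CPM.

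IFI44, an interferon-induced cytoplasmic protein, rose by 0.82 ± 0.22 on the log2 scale (edgeR adjusted p = 0.0187), and IFIT3, of a family that binds foreign RNA, by 0.48 ± 0.15 (edgeR adjusted p = 0.0428). For both, the highest control library was animal 5, which lay within the fWBI range. The exonuclease ISG20 and the OAS-like protein OASL had large but uncalled fold changes, 1.19 ± 0.41 (edgeR adjusted p = 0.0594) and 1.34 ± 0.53 (edgeR adjusted p = 0.0953), at levels of 1.41 to 3.29 and 0.508 to 5.17 CPM in fWBI white matter and 0.491 to 1.94 and 0.540 to 1.10 CPM in control white matter. The other effectors, IFI6, IFI27, IFI44L, IFIT1, IFIT5 and OAS1, had log2 fold changes from -0.10 (IFIT5, the 1 negative value) to 0.68 (OAS1), with adjusted p of 0.278 or more in edgeR.

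Without control animals 1 and 3, 11 of 29 genes were called higher in fWBI white matter and none lower, where 7.23% of all genes were called higher and 3.54% lower in that fit. IFI16 (log2 0.59, edgeR adjusted p = 0.0688), IFI44 (0.58, edgeR adjusted p = 0.122), MX1 (1.07, edgeR adjusted p = 0.0747) and IFIT3 (0.34, edgeR adjusted p = 0.229) were then no longer called, and STAT4 was. Among the genes that stayed called were GBP3, GBP7, OAS2, STAT6, IRF5, IRF1, STAT5A, STAT3 and IFI35. Of single animals, leaving out control animal 1, 3 or 4 or fWBI animal 1, 2, 4 or 5 ended the call of IFIT3 (edgeR adjusted p up to 0.114). Leaving out control animal 3 or 4 or fWBI animal 1, 4 or 5 ended that of MX1 (up to 0.0729), and leaving out control animal 3 that of IFI44 (0.0524).

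Most tested markers of microglia and macrophages moved with these genes in white matter. Of 13 listed, 8 had a row, and AIF1, ITGAM, C1QA, C1QB and CX3CR1 did not. The summed level of 8 such markers was 522 to 888 CPM in fWBI white matter, 504 to 689 CPM in TBI white matter and 265 to 482 CPM in control white matter, so the fWBI and control ranges did not overlap. Of the 8, 6 rose and 1 fell after fWBI: CD68, a lysosomal protein of phagocytes, by 3.70 ± 0.39 on the log2 scale, C1QC by 2.80 ± 0.29, CD163 by 2.40 ± 0.46, FCER1G by 2.34 ± 0.30, PTPRC by 1.85 ± 0.24 and TYROBP by 1.70 ± 0.26, whereas P2RY12, a receptor of resting microglia, fell with -1.36 ± 0.21 (edgeR adjusted p = 0.000393). CSF1R, which all microglia carry, had -0.12 ± 0.20 (edgeR adjusted p = 0.773). Endothelial markers rose in 3 of 7 cases and fell in 1, astrocyte markers rose in 2 of 6 and fell in 1, and 7 of 13 pan-neuronal markers fell. The mean log2 CPM of the pan-neuronal markers was 4.70 to 5.65 in fWBI white matter, a range that holds the 3 control libraries other than animals 1 and 3. Without those 2 libraries no pan-neuronal marker was called by edgeR, with 3 at an unadjusted p under 0.05, while 6 of the 8 microglia and macrophage markers rose and 1 fell, 1 of 7 endothelial markers rose, 1 of 6 astrocyte markers rose and 1 fell, and 3 of 6 oligodendrocyte and myelin markers fell. T cell markers summed to 3.18 to 18.9 CPM in fWBI white matter and 2.27 to 11.2 CPM in control white matter, and the 1 that could be tested, CD8A, was not called. The part of these cells in the interferon response values was not tested.

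In TBI animals, sampled years after a single dose, the guanylate-binding proteins rose in white matter. GBP7 (log2 0.99 ± 0.16, 1.99-fold) and GBP3 (0.86 ± 0.14, 1.81-fold) were the 2 of 29 genes called higher against control, both at an adjusted p of 0.0310 in edgeR, and none was called lower. Over all genes 0.0656% were called higher and 0.00656% lower, 10 genes and 1 gene. Each of the 5 TBI libraries lay above each of the 5 control libraries for both genes, by dose at 25.6 and 31.3 CPM of GBP3 at 6.75 Gy, 26.5 and 29.9 CPM at 7.2 Gy and 35.3 CPM at 8.05 Gy. Both calls were lost in every fit that left out 1 of the 10 animals compared, apart from those without control animal 2 and, for GBP7, without TBI animal 2, and also without control animals 1 and 3 (log2 0.99 and 0.76, edgeR adjusted p = 0.263 for each).

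The other 27 genes did not pass the threshold in TBI white matter. The median log2 fold change of the 29 was 0.32, against -0.0089 over all genes. Of the 29 values 25 were positive, against 48.5% of all genes. Without control animals 1 and 3 some values shrank, such as IFI35 (0.071, against 0.32 with all libraries) and IFI44 (-0.0027, against 0.24). Others did not, such as STAT6 (0.62, against 0.51) and OAS2 (0.65, against 0.64). No median was taken in that fit. Of the 29, 4 did not overlap between TBI and control, with GBP3, GBP7 and STAT6 among them, and the share of all genes was not computed. STAT6 had a log2 fold change of 0.51 ± 0.18 (edgeR adjusted p = 0.171). OAS2 averaged 7.63 ± 1.43 CPM in TBI white matter and 4.87 ± 1.18 CPM in control white matter (SD, n = 5 each), with 0.64 ± 0.19 on the log2 scale (edgeR adjusted p = 0.140). Microglia and macrophage markers were also at higher levels: they summed to 504 to 689 CPM in TBI white matter and 265 to 482 CPM in control white matter, without overlap, at a median log2 fold change of 0.82 over the 8. None of the 8 was called by edgeR in this comparison, with 6 at an unadjusted p under 0.05, while DESeq2 called 4. DESeq2 also called 6 of 13 pan-neuronal, 2 of 7 endothelial and 1 of 6 astrocyte markers, and 0 of 6 oligodendrocyte and myelin markers. The shares of all genes at the unadjusted level and by DESeq2 are not given here. Without control animals 1 and 3 the median of the 8 microglia and macrophage markers was 0.56, with 0 called by edgeR and 4 at an unadjusted p under 0.05. All 13 pan-neuronal markers were at an unadjusted p under 0.05 with all libraries (median -1.66) and 0 without those libraries (median 0.13). The part of the microglia and macrophage markers in the values of GBP3 and GBP7 was not tested.

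Set against TBI directly, fWBI white matter had higher levels of 8 of 29 genes and lower levels of none, where 4.8% of all genes were called higher and 2.53% lower. Among the 8 were OAS2 (1.17 ± 0.19 on the log2 scale, edgeR adjusted p = 0.000968), GBP3 (0.82 ± 0.14), STAT6 (0.95 ± 0.18), IRF5 (0.89 ± 0.22), STAT5A (0.85 ± 0.20), GBP7 (0.56 ± 0.16) and STAT3 (0.47 ± 0.13); after OAS2 the adjusted p of those named ran from 0.00154 to 0.0457 in edgeR. The 2 groups did not overlap for 10 of the 29, called and uncalled, with OAS2, GBP3, STAT6 and STAT3 among them. The share of all genes separated in this way was not computed. The calls of GBP7 and STAT3 were close to the threshold, with adjusted p of 0.0430 and 0.0457 in edgeR, and held in 4 and 1 of the 10 fits that each left out 1 animal. GBP7 was lost without TBI animal 2, 3 or 4 or fWBI animal 2, 3 or 5 (up to 0.100), STAT3 without any animal but fWBI animal 1 (up to 0.123), and IRF5 without TBI animal 1, 3 or 5 or fWBI animal 2 or 4 (up to 0.0601). IFIT5, which binds foreign RNA, was the clearest exception in direction, with 41.8 to 55.2 CPM in fWBI white matter and 56.4 to 66.5 CPM in TBI white matter and no overlap (-0.30 ± 0.12 on the log2 scale, edgeR adjusted p = 0.182). In group means, fWBI stood above TBI and TBI above control for 22 of 29 genes in white matter, 16 of 27 in hippocampus and 9 of 28 in prefrontal cortex. The share of all genes in that order was not computed, so these counts have no background. The control means of white matter include animals 1 and 3.

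In the hippocampus, 2 of 27 genes tested rose after fWBI and none fell, where 0.514% of all genes were called higher and 0.208% lower. Both are antiviral effectors. OAS2 had 7.43, 6.05, 5.39, 7.72 and 5.74 CPM in fWBI hippocampus, 2.48, 2.20, 1.46, 3.81 and 3.47 CPM in TBI hippocampus and 3.41, 2.49, 2.93, 2.04 and 1.92 CPM in control hippocampus. Every fWBI library lay above all 10 others, and the log2 fold change against control was 1.33 ± 0.24, 2.52-fold (edgeR adjusted p = 0.0114). IFI44 had 12.7, 17.2, 9.28, 12.2 and 9.54 CPM in fWBI hippocampus, 9.35, 4.73, 5.73, 8.65 and 7.43 CPM in TBI hippocampus and 5.24, 6.46, 6.94, 4.48 and 5.77 CPM in control hippocampus. It did not overlap the controls but did overlap TBI, and its log2 fold change against control was 1.07 ± 0.21 (edgeR adjusted p = 0.0223). The IFI44 call was lost when control animal 1, 4 or 5 or fWBI animal 2 was left out, with adjusted p up to 0.0741 in edgeR.

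The guanylate-binding proteins were not called in the hippocampus. GBP3 had 9.61, 12.8, 10.8, 10.8 and 12.6 CPM in fWBI hippocampus, 8.20, 9.79, 7.71, 11.2 and 12.6 CPM in TBI hippocampus and 8.04, 10.3, 8.21, 7.74 and 6.25 CPM in control hippocampus. GBP7 had 7.95, 7.71, 8.25, 5.87 and 9.54 CPM in fWBI hippocampus, 6.96, 5.17, 7.61, 6.69 and 8.10 CPM in TBI hippocampus and 7.19, 5.44, 5.87, 4.35 and 3.60 CPM in control hippocampus. For both genes the 3 groups overlapped, and the log2 fold changes of fWBI against control were 0.48 ± 0.16 and 0.57 ± 0.19, each with an adjusted p of 0.239 in edgeR. OAS2, IFI44 and STAT3 were the 3 of 27 that did not overlap between fWBI and control hippocampus, and the share of all genes was not computed. STAT3 was not called, with a log2 fold change of 0.26 ± 0.076 (edgeR adjusted p = 0.156). The median log2 fold change of the 27 was 0.34, against -0.0082 over all genes, with 23 of 27 positive, against 48.2% of all genes. Of the 8 microglia and macrophage markers, C1QC rose by 1.19 ± 0.25 on the log2 scale and P2RY12 fell with -1.93 ± 0.17, and their summed level was 174 to 266 CPM in fWBI hippocampus and 172 to 238 CPM in control hippocampus.

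In TBI hippocampus no gene of the 27 was called against control by edgeR, where 0.0% of all genes were called, and none by DESeq2. At the looser level of an unadjusted p under 0.05 there was 1 of the 27, and the share of all genes at that level is not given here. OAS2 had 0.068 ± 0.25 on the log2 scale in that comparison (edgeR adjusted p = 0.944), with a value whose sign changed when 1 of 3 animals was left out. Between fWBI and TBI hippocampus, OAS2 was the 1 gene called, at 1.26 ± 0.24 on the log2 scale (edgeR adjusted p = 0.0250), where 0.247% of all genes were called higher and 0.0912% lower. That call was lost in 6 of the 10 fits that each left out 1 animal: without TBI animal 1, 2 or 3 or fWBI animal 1, 2 or 4, with adjusted p up to 0.0946 in edgeR.

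In the prefrontal cortex no gene of the 28 passed the threshold after fWBI in edgeR, where 1.15% of all genes were called. At the looser level of an unadjusted p under 0.05 there were 10 of the 28, a count not comparable with that share. DESeq2 called 2, OAS2 and IFI44. The shares of all genes at the looser level and by DESeq2 are not given here, so neither count has a background. OAS2 had 5.85, 6.37, 5.50, 6.26 and 3.03 CPM in fWBI prefrontal cortex, 2.68, 1.87, 2.23, 2.48 and 4.68 CPM in TBI prefrontal cortex and 3.18, 1.97, 3.13, 1.35 and 2.08 CPM in control prefrontal cortex. fWBI animal 5, at 3.03 CPM, lay within the control range, and the other 4 fWBI animals lay above all controls. The log2 fold change was 1.20 ± 0.29 (edgeR adjusted p = 0.0514), and without fWBI animal 5 or control animal 1 it passed the threshold, at an adjusted p of 0.0271 and 0.0473 in edgeR.

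IFI44 had 8.91, 11.1, 6.69, 12.3 and 8.26 CPM in fWBI prefrontal cortex, 3.35, 4.50, 5.01, 6.46 and 6.18 CPM in TBI prefrontal cortex and 4.65, 6.70, 4.75, 6.30 and 5.19 CPM in control prefrontal cortex. The lowest fWBI library, animal 3, lay just below the highest control, and the log2 fold change was 0.79 ± 0.20 (edgeR adjusted p = 0.0726). GBP3 had 9.84, 9.47, 11.1, 8.98 and 9.41 CPM in fWBI prefrontal cortex, 7.57, 10.2, 12.4, 11.4 and 10.5 CPM in TBI prefrontal cortex and 7.83, 9.36, 7.88, 7.95 and 7.15 CPM in control prefrontal cortex. GBP7 had 5.85, 5.34, 8.53, 3.33 and 7.11 CPM in fWBI prefrontal cortex, 6.42, 7.00, 5.45, 4.72 and 8.14 CPM in TBI prefrontal cortex and 5.63, 4.34, 4.08, 3.45 and 4.84 CPM in control prefrontal cortex. Here too the groups overlapped: GBP3 and GBP7 had 0.29 ± 0.14 and 0.45 ± 0.23 on the log2 scale, with adjusted p of 0.364 and 0.414 in edgeR. The median over the 28 genes was 0.32, against -9.4e-05 over all genes. The summed microglia and macrophage markers were 138 to 174 CPM in fWBI prefrontal cortex and 131 to 148 CPM in control prefrontal cortex, and 1 of the 8 was called, P2RY12, which fell with -1.75 ± 0.18.

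TBI prefrontal cortex likewise had no call among the 28 against control in edgeR, where 0.0% of all genes were called. At the looser level of an unadjusted p under 0.05 there were 7 of the 28, a count not comparable with that share. Shares of all genes at the looser level and by DESeq2 are not given here for this comparison. DESeq2 called 1, STAT4, the transducer of the interleukin signal that makes T cells and natural killer cells release type II interferon. STAT4 had 11.1, 14.5, 16.4, 18.8 and 17.4 CPM in TBI prefrontal cortex and 8.08, 10.1, 6.27, 10.4 and 7.15 CPM in control prefrontal cortex, without overlap, and a log2 fold change of 0.91 ± 0.20 (edgeR adjusted p = 0.102). Between fWBI and TBI prefrontal cortex no gene of the 28 was called by edgeR, where 0.29% of all genes were called. The looser level of an unadjusted p under 0.05 was reached by 4, again not comparable with that share. No share of all genes at the looser level or by DESeq2 is given here either. DESeq2 called IFI44, whose groups did not overlap and whose log2 fold change was 0.88 ± 0.20 (edgeR adjusted p = 0.109). The median over the 28 genes between the 2 irradiated groups was 0.034.

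Whether the fWBI effect differed between regions was tested as an interaction over the 45 libraries, blocked by animal. Between white matter and prefrontal cortex the effect was larger in white matter for 9 of 30 genes and smaller for none, where 4.56% of all genes were called higher and 5.4% lower. Among the 9 were GBP3 (difference of log2 fold changes 1.40 ± 0.17, edgeR adjusted p = 1.74e-06), STAT6 (1.37 ± 0.20), IRF8 (1.36 ± 0.32), GBP7 (1.12 ± 0.22), STAT5A (1.11 ± 0.20), IRF5 (0.95 ± 0.27), IRF1 (0.85 ± 0.25) and STAT3 (0.67 ± 0.17); after GBP3 the adjusted p of those named ran from 3.18e-05 to 0.0256 in edgeR. Between white matter and hippocampus 7 of 30 were called higher and none lower, where 4.13% of all genes were called higher and 4.83% lower. Among the 7 were GBP3 (1.20 ± 0.17, edgeR adjusted p = 2.29e-05), IRF8 (1.10 ± 0.29), STAT6 (1.09 ± 0.20), IRF5 (1.01 ± 0.27), GBP7 (0.95 ± 0.21) and STAT5A (0.82 ± 0.20), and after GBP3 the adjusted p of those named ran from 0.000753 to 0.0180 in edgeR.

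**Figure D3:**
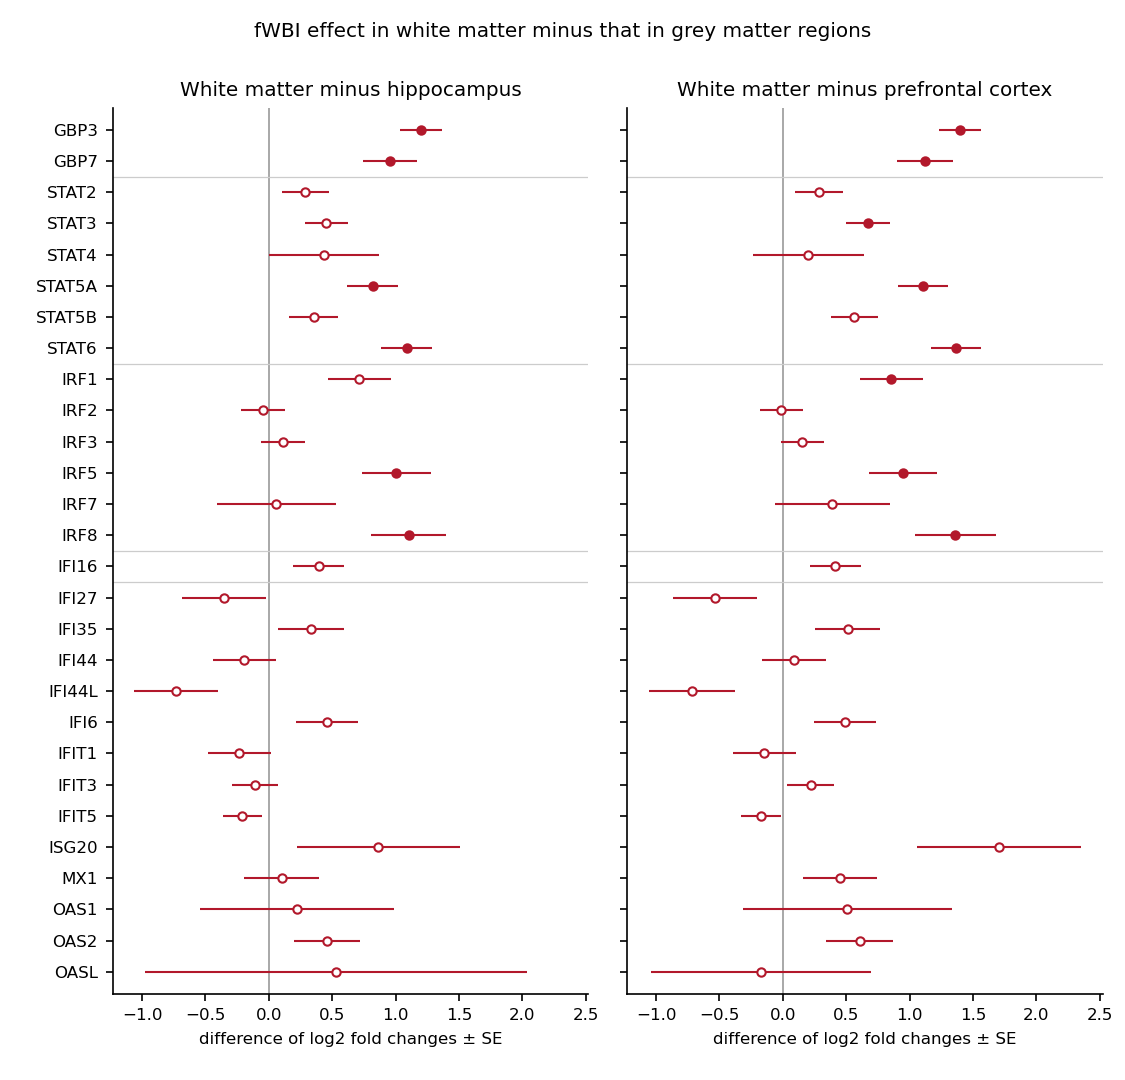
Difference of the fWBI effect (log2 fold change against control) between white matter and prefrontal cortex and between white matter and hippocampus for interferon response genes, with bars of 1 standard error; filled points have an adjusted p under 0.05. The guanylate-binding proteins, STAT genes and regulatory factors hold every filled point, and all 13 antiviral effectors are open.

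None of the 13 antiviral effectors tested was called in either comparison, a count close to the share of all genes called, and the roles were not tested against each other. OAS2, which was called after fWBI in white matter and hippocampus, had differences of 0.61 (95% interval 0.089 to 1.12) against prefrontal cortex and 0.46 (-0.051 to 0.97) against hippocampus, with adjusted p of 0.150 and 0.325 in edgeR. IFI44 had 0.086 (-0.41 to 0.58) and -0.19 (-0.68 to 0.30), so its effect could be larger or smaller in white matter than elsewhere. IRF8 was called here although its own change in white matter was not: its fWBI effect was 0.85 ± 0.29 in white matter, against -0.27 ± 0.26 in hippocampus and -0.51 ± 0.28 in prefrontal cortex. Between hippocampus and prefrontal cortex no gene of the 30 was called by edgeR, and 0.0% of all genes were called. None of the 30 had an unadjusted p under 0.05, a level reached by 299 of all 16614 genes tested.

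The 2 control libraries with neuronal RNA bear on these region differences. Without them GBP3, GBP7, IRF8, STAT5A and STAT6 were still called higher between white matter and prefrontal cortex, as were GBP3, GBP7 and STAT6 between white matter and hippocampus, while IRF1, IRF5 and STAT3 against prefrontal cortex and IRF5, IRF8 and STAT5A against hippocampus were not. IFI44L was then called in the other direction in both, at -1.24 (edgeR adjusted p = 0.0161) and -1.25 (edgeR adjusted p = 0.0143), against -0.72 and -0.73 with all libraries. The calls of GBP3, GBP7 and STAT6 also held whichever single animal was left out, in both comparisons. Against prefrontal cortex, leaving out control animal 1 or 3 or fWBI animal 1 or 2 ended the call of IRF1 (edgeR adjusted p up to 0.108), control animal 1, 3 or 4 or fWBI animal 2 or 4 that of IRF5 (up to 0.0944), and fWBI animal 2 that of STAT3 (0.0503). Against hippocampus, control animal 2 or 3 or fWBI animal 2, 3 or 4 did so for IRF5 (up to 0.0700), control animal 1 or 3 or fWBI animal 2, 3 or 4 for IRF8 (up to 0.0649), and control animal 3 or fWBI animal 2 for STAT5A (up to 0.0626). Of the 8 microglia and macrophage markers, 6 had a larger fWBI effect in white matter than in prefrontal cortex and 6 than in hippocampus, and their part in these differences was not tested. For TBI, no difference of effect between white matter and prefrontal cortex or hippocampus was called among the 30 genes in edgeR. Of all genes, 0.0301% and 0.00602% were called. The looser level of an unadjusted p under 0.05 was reached by 4 of the 30 in each, a count not comparable with those shares. Without the share of all genes at the looser level, these counts have no background.

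The regions already differed in control animals. White matter had higher levels than prefrontal cortex for 20 of 28 genes and lower levels for 3, where 29.5% of all genes were called higher and 31.4% lower, and higher levels than hippocampus for 19 and lower levels for 2, where 28.1% of all genes were called higher and 27.8% lower. The leading genes of the fWBI comparison were among the higher ones: GBP7 averaged 13.4 ± 0.980 CPM in control white matter, 5.29 ± 1.39 CPM in control hippocampus and 4.47 ± 0.820 CPM in control prefrontal cortex (SD, n = 5 each), with log2 differences of 1.61 ± 0.18 from prefrontal cortex and 1.38 ± 0.18 from hippocampus. GBP3 had 1.03 ± 0.13 and 1.02 ± 0.13, and OAS2 1.09 ± 0.22 and 0.96 ± 0.22. IRF8 had the largest excess over prefrontal cortex, 2.22 ± 0.22 (edgeR adjusted p = 1.76e-05). Without animals 1 and 3, 21 genes were higher and 3 lower than in prefrontal cortex, where 31.0% of all genes were called higher and 31.6% lower. Against hippocampus 19 were then higher and 2 lower, where 29.6% of all genes were called higher and 30.2% lower.

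STAT4 (-2.11 ± 0.38) and STAT6 (-0.65 ± 0.15) were among the genes lower in white matter than in prefrontal cortex, and STAT4 (-2.39 ± 0.37) and IFI6 (-1.22 ± 0.20), a gene that protects against some RNA viruses, were lower than in hippocampus. STAT6, whose fWBI call was in white matter, averaged 32.4 ± 8.51 CPM in fWBI white matter, 11.7 ± 2.08 CPM in control white matter and 18.6 ± 1.22 CPM in control prefrontal cortex (SD, n = 5 each). Between hippocampus and prefrontal cortex 3 of 28 genes were higher (IFI6, STAT2, IRF8) and 3 lower, STAT6 and STAT5A among them, where 7.68% of all genes were called higher and 7.29% lower. Leaving out control animal 3 ended the calls of IRF8 and STAT2 between hippocampus and prefrontal cortex, control animal 4 or 5 that of STAT2 and control animal 5 that of STAT5A (edgeR adjusted p up to 0.0799). Of the 8 microglia and macrophage markers, 7 were also higher in control white matter than in control prefrontal cortex.

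**Figure D4:**
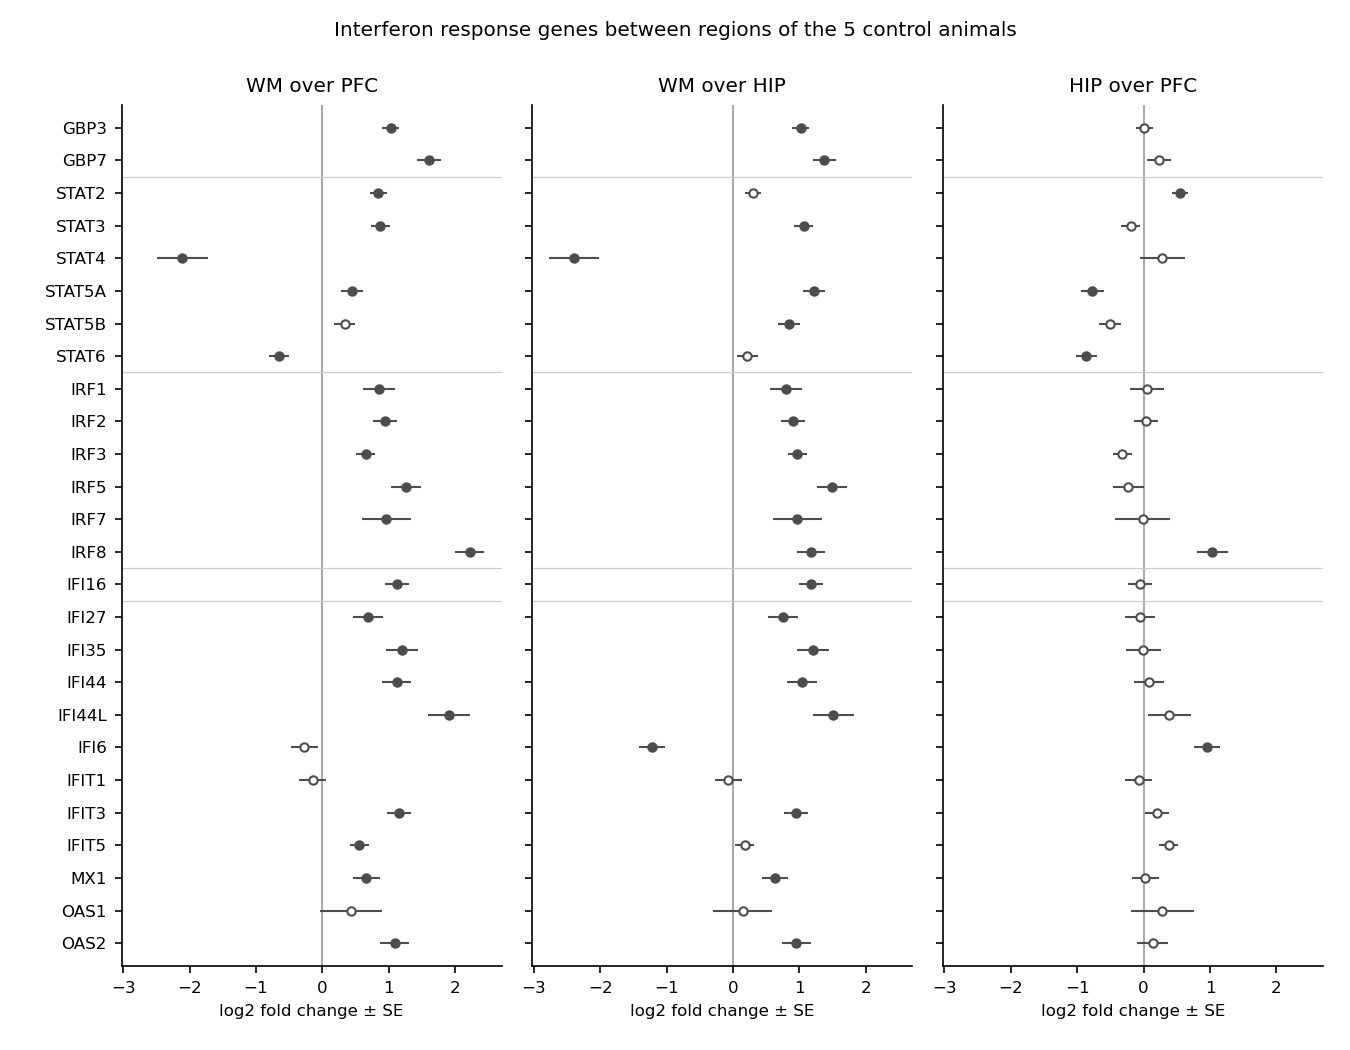
Level of interferon response genes in white matter against prefrontal cortex and against hippocampus, and in hippocampus against prefrontal cortex, in the 5 control animals, as log2 differences with bars of 1 standard error; filled points have an adjusted p under 0.05. Most filled points of white matter lie to the right, with STAT4 and STAT6 to the left against prefrontal cortex and STAT4 and IFI6 to the left against hippocampus.

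Animals were also compared one by one. The median deviation of the 29 genes from the control mean in white matter was 0.49 to 0.98 on the log2 scale in the 5 fWBI animals, with 23 to 29 genes above the control mean. It was 0.26 to 0.39 in the 5 TBI animals and -0.17 to 0.18 in the 5 control animals, so the 3 groups did not overlap in this summary. The controls lie around their own mean by construction, and that mean includes animals 1 and 3. The summary was not repeated without those animals or over all genes, and it restates the fold changes above by animal. The lowest fWBI animals were 5 (0.49) and 3 (0.57), and the lowest controls were animals 1 (-0.16) and 3 (-0.17). In hippocampus the fWBI animals had medians of 0.17 to 0.53, the TBI animals 0.0067 to 0.30 and the controls -0.33 to 0.13. In prefrontal cortex the ranges overlapped throughout, at 0.12 to 0.29 after fWBI, 0.047 to 0.35 after TBI and -0.089 to 0.19 in controls.

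**Figure D5:**
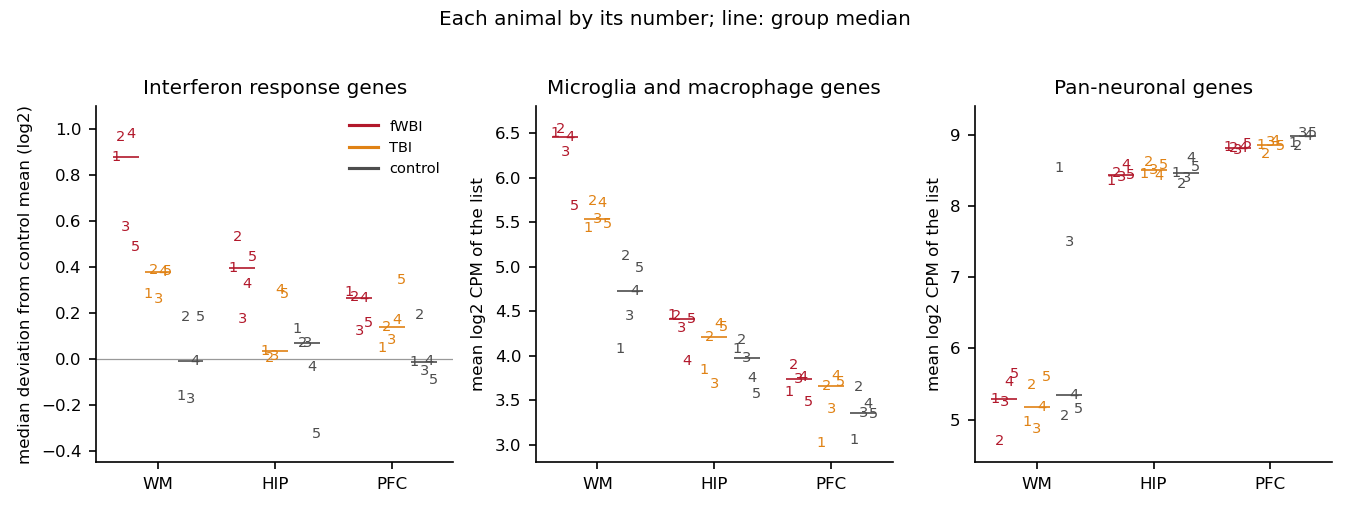
For each animal and region, the median deviation of the tested interferon response genes from the control mean (log2), the mean log2 CPM of the microglia and macrophage markers and the mean log2 CPM of the pan-neuronal markers, for fWBI, TBI and control. In white matter all fWBI animals lie at 0.49 or above and all controls at 0.18 or below, and control animals 1 and 3 stand out with pan-neuronal values of 8.53 and 7.50.

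OAS1, separated from OAS2 by OAS3 and CFAP73 in the gene order and of the same enzyme family, varied widely between animals of the same group. It had 1.97, 2.26, 1.82, 6.16 and 37.8 CPM in fWBI white matter, 3.88, 9.06, 24.7, 3.56 and 19.8 CPM in TBI white matter and 1.10, 16.3, 3.19, 11.2 and 0.216 CPM in control white matter. Control animal 2 was the highest control in all 3 regions, with 13.7 CPM in hippocampus and 6.50 CPM in prefrontal cortex, and fWBI animal 5 was the highest fWBI animal in white matter and hippocampus (11.3 CPM) but not in prefrontal cortex (2.20 CPM). Its uncalled fold change in fWBI white matter, 0.68 ± 0.99 on the log2 scale, had an interval of -1.26 to 2.61. OAS2 in the same animals did not share this spread, at 3.89 to 6.67 CPM over the control white matter libraries.

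IFI44L, the neighbour of IFI44, also depended on single animals. TBI animal 4 had 25.4 CPM in white matter, where the other 4 TBI animals had 6.04 to 7.29 CPM, and it was also the highest TBI animal in hippocampus (5.30 CPM) and prefrontal cortex (4.39 CPM). In fWBI, animal 1 was highest in white matter and hippocampus, at 19.9 and 8.56 CPM, and animal 4 in prefrontal cortex, at 7.37 CPM. The log2 fold change of IFI44L against control after fWBI was 0.37 ± 0.40 in white matter, against 1.04 ± 0.31 in hippocampus and 1.04 ± 0.36 in prefrontal cortex, with none called. The effector IFI27 was similar in spread, with 5.85 to 25.2 CPM in fWBI white matter and 7.34 to 17.1 CPM in control white matter.

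Other genes of the interferon pathway, outside the families above, were followed as a list of 67 symbols, of which 53 had a row; 50 were tested in white matter, 46 in hippocampus and 44 in cortex. The list was chosen with earlier results of these data known, so its counts are not independent support. In white matter 30 of 50 rose after fWBI and none fell, where 8.8% of all genes were called higher and 7.86% lower. The median log2 fold change of the 50 was 0.78. Among receptors and kinases, IFNAR2, a chain of the type I receptor, rose by 1.07 ± 0.15 on the log2 scale (edgeR adjusted p = 0.000150), while IFNAR1 (0.30 ± 0.13), IFNGR2 (0.31 ± 0.14), JAK1 (0.28 ± 0.10), JAK2 (-0.19 ± 0.087) and TYK2 (0.42 ± 0.14) were not called. Among sensors, the RNA sensors RIGI (0.48 ± 0.11) and DHX58 (0.79 ± 0.19), the DNA sensor CGAS (0.75 ± 0.24), ZBP1 (1.48 ± 0.42), which binds nucleic acid in the Z form, and TLR9 (0.64 ± 0.13) rose, and the adaptor MAVS (0.053 ± 0.24), the kinase TBK1 (-0.076 ± 0.11), TLR3 (-0.37 ± 0.35) and TLR7 (-0.51 ± 0.18) were not called.

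Among the 50 genes tested with all libraries, the 4 largest changes in fWBI white matter were in targets. CXCL10, a chemokine for activated T cells, rose by 2.59 ± 0.47 on the log2 scale, SAMD9, an antiviral restriction factor, by 2.56 ± 0.43, CIITA, the switch for MHC class II genes, by 2.36 ± 0.26 (edgeR adjusted p = 2.08e-05), and IDO1, a tryptophan-degrading enzyme, by 2.31 ± 0.59. NLRC5, the corresponding activator of MHC class I genes, rose by 1.41 ± 0.22, and the immunoproteasome subunits PSMB8 and PSMB9 by 1.14 ± 0.20 and 1.16 ± 0.18. USP18, which restrains signalling at the type I receptor, rose by 1.86 ± 0.52. RSAD2, a classic type I target, was not called, and its log2 fold change was -0.10 ± 0.34 (edgeR adjusted p = 0.903). Without control animals 1 and 3, 23 of these 50 genes were called higher and 1 lower, where 7.23% of all genes were called higher and 3.54% lower. The 1 lower was TLR7, at -0.75 ± 0.15 (edgeR adjusted p = 0.00385). CGAS, ZBP1, IDO1 and USP18 were then no longer called, with adjusted p of 0.0898, 0.115, 0.0987 and 0.0806 in edgeR.

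In the hippocampus 3 of 46 of these genes rose after fWBI and none fell, where 0.514% of all genes were called higher and 0.208% lower. They were CXCL10 (2.19 ± 0.43), CIITA (1.59 ± 0.34) and SAMD9L (1.18 ± 0.16). In prefrontal cortex 1 of 44 rose and none fell, where 1.15% of all genes were called in either direction. This was SAMD9L (0.98 ± 0.17, edgeR adjusted p = 0.00870). SAMD9L, a relative of SAMD9, was thereby called after fWBI in all 3 regions, at 1.35 ± 0.15 in white matter. After TBI none was called in any region by edgeR; the smallest adjusted p in white matter belonged to TRIM22 (0.62 ± 0.14, edgeR adjusted p = 0.117), followed by CXCL10 (2.06 ± 0.47, edgeR adjusted p = 0.120). Of the interferon genes themselves IFNB1 had a row, with 2 to 4 counts per library in fWBI white matter, 0 to 4 in TBI white matter and 0 to 3 in control white matter, too few to test. IFNLR1, the specific chain of the type III interferon receptor, did not pass the filter with all libraries, but had 6 to 65 counts per library in fWBI white matter, 0 to 1 in TBI white matter and 0 to 1 in control white matter, and 0 to 3 in every library of the other regions; it was picked out after its values were seen.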

How the data were processed

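Total RNA was sequenced after removal of ribosomal RNA with a stranded kit, per the labels, from 3 brain regions of 15 rhesus macaques. The authors deposited unscaled counts of reads per gene, 1 column for each of 45 libraries, in whole numbers with totals from 6625435 to 12541507. Tools named without a version in the submitters' processing notes are STAR, featureCounts, FastQC and DESeq2. Build, annotation and strand setting were not stated in the sources used here, so reads of a gene and of an antisense partner cannot be told apart. Symbols came from a gene name table and were present for 15769 of 30246 IDs. RefSeq gene order (assembly T2T-MMU8v2.0) was used only to find neighbours.

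The 33 genes, the pathway list and the marker lists were chosen with earlier results of these data known. Irradiation comparisons were fitted within a region on 15 libraries, after TMM scaling and edgeR's default low-count filter, by the robust quasi-likelihood test of that package (version 4.0.16, with R 4.3.3). Comparisons between regions were made in the 5 control animals, and differences of effects in all 45 libraries, both blocked by animal. P-values were two-sided and adjusted by the Benjamini-Hochberg method over all genes tested. Standard errors are the log2 fold change over the square root of F. The 95% intervals use the multiplier of the normal distribution on these errors, so they are narrower than the quasi-likelihood test would give. Libraries of the same animal, a pairing that comes from the labels, deviated together across genes (median r = 0.288 over 45 pairs, 41 above 0.1). Animals within a group were separate. The steps were tested on simulated data. Values in every library are given for genes called in an irradiation against control comparison, at most 8 per comparison in order of p, and for OAS2, GBP3 and GBP7; others named were picked by their place in a group or after their values were seen. Levels are not compared between genes, since no transcript length was used. Alternatives were DESeq2's size factors, the DESeq2 test (1.42.0), no filter on low counts, only the 2 groups compared in the fit, the animal number as a block, region fits without the animal block, white matter without control animals 1 and 3, and leaving out each animal in turn. Promoter motifs were not searched here. Some genes that enter the counts are not reported here by name or drawn.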

Additional observations from a re-analysis of the deposited data

Results flagged for a closer look

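Of 126 groups of 5 libraries, 9 for each of 14 genes called in an irradiation comparison, 4 held a library far from the other 4 of its group, where chance gives about 1 in 20. IFI16 was at 32.2 CPM in TBI white matter animal 2, against 39.7 to 42.6 CPM in the other TBI animals. MX1 was at 23.0 CPM in control white matter animal 4, against 43.3 to 51.3 CPM in the other controls. OAS2 was at 3.03 CPM in fWBI prefrontal cortex animal 5, against 5.50 to 6.37 CPM in the other fWBI animals. STAT3 was at 67.9 CPM in control prefrontal cortex animal 1, against 48.0 to 50.7 CPM in the other controls.

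The fWBI effect differed between regions by the interaction test. Between white matter and prefrontal cortex the difference of log2 fold changes was 1.40 for GBP3, 1.37 for STAT6, 1.36 for IRF8, 1.12 for GBP7, 1.11 for STAT5A, 0.95 for IRF5, 0.85 for IRF1 and 0.67 for STAT3. Between white matter and hippocampus it was 1.20 for GBP3, 1.10 for IRF8, 1.09 for STAT6, 1.01 for IRF5, 0.95 for GBP7 and 0.82 for STAT5A. Of 8 microglia and macrophage markers, 6 rose and 1, P2RY12, fell in fWBI white matter against control, while CSF1R was not called. The part of these markers in the differences was not tested.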

How the results depend on the processing

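The genes called higher for fWBI against control in white matter numbered 11 to 17 when 1 animal was left out. That range was 0 to 2 for TBI against control and 5 to 8 for fWBI against TBI in white matter, 1 to 4, 0 and 0 to 2 for the same comparisons in hippocampus (fWBI against control, TBI against control, fWBI against TBI), 0 to 1 for fWBI against control in prefrontal cortex and 0 for the other comparisons there. Differences of the fWBI effect numbered 6 to 10 for white matter minus prefrontal cortex and 4 to 8 for white matter minus hippocampus. Region calls in controls numbered 19 to 24, 17 to 22 and 4 to 6 for white matter against prefrontal cortex, white matter against hippocampus and hippocampus against prefrontal cortex. Other pathway genes called after fWBI numbered 26 to 31, 1 to 4 and 1 to 2 in white matter, hippocampus and prefrontal cortex.

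The DESeq2 test called 1 gene for TBI against control in prefrontal cortex (STAT4), 2 for fWBI against TBI in hippocampus (IFI44L and OAS2), 1 for fWBI against TBI in prefrontal cortex (IFI44) and 2 for fWBI against control there (IFI44 and OAS2). Of the other pathway genes it called 5 for TBI against control in white matter, 1, lower, for TBI against control in prefrontal cortex, 6 for fWBI against control in hippocampus and 4 for fWBI against control in prefrontal cortex (3 higher and 1 lower). Without a filter on low counts, 1 gene was called for fWBI against control in prefrontal cortex (OAS2). With only the 2 groups compared in the fit, or without control animals 1 and 3, 0 genes were called for TBI against control in white matter. Shares of all genes called by DESeq2 or in the other alternatives are not set beside the counts of this section. These counts therefore have no background.

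Libraries that share only an animal number showed little pairing over the 3 regions together (median r = 0.0128 over 45 pairs of different animals, 13 above 0.1). In prefrontal cortex some did deviate together, such as fWBI and control animals 1, 2 and 4 (r = 0.307, 0.302 and 0.319) and fWBI and TBI animals 4 (0.391). Others there did not, such as fWBI and control animals 5 (-0.102) and TBI and control animals 2 (-0.0038). With the number as a replicate block, 0 genes were called for TBI against control in white matter and for fWBI against TBI in hippocampus, 1 for fWBI against TBI in prefrontal cortex (IFI44), 1 for fWBI against control in hippocampus (OAS2), 2 for fWBI against control in prefrontal cortex (IFI44 among them) and 1 of the other pathway genes for fWBI against control in hippocampus.

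Of 1411 alternatives of named values, 1266 kept their direction and side of the threshold, 135 lost the call, 4 gained one and 6 reversed, each of these 6 uncalled. GBP7 for fWBI against TBI in prefrontal cortex ranged from -0.23 to 0.082 when 1 animal was left out and turned to 0.042 without TBI animal 5 and 0.082 without fWBI animal 4. OAS2 for TBI against control in hippocampus ranged from -0.092 to 0.22 and turned to -0.092 without TBI animal 4, -0.042 without TBI animal 5 and -0.018 without control animal 5, and in prefrontal cortex it ranged from -0.011 to 0.38 and turned to -0.011 without TBI animal 5. The cause of these changes was not tested. With 5 animals in a group, changes smaller than those called could be missed, and genes under about 10 counts per library could not be tested.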

Other observations

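Further interferon-induced genes outside the 33 rose in fWBI white matter against control. The ADP-ribosyltransferase family members PARP9, PARP12 and PARP14 rose by 1.01 ± 0.14, 1.53 ± 0.25 and 1.24 ± 0.14 on the log2 scale. The restriction factors BST2, which tethers budding virus, and TRIM22 rose by 1.31 ± 0.28 and 0.94 ± 0.14. SP100, a protein of nuclear bodies, rose by 1.89 ± 0.32, and UBE2L6, a conjugating enzyme for the ubiquitin-like modifier ISG15, by 0.90 ± 0.22. In the same comparison HERC5 (0.50 ± 0.27), a ligase for that modifier, and the RNA-editing enzyme ADAR (0.24 ± 0.16) were not called, with adjusted p of 0.244 and 0.335 in edgeR. CMPK2 (-0.51 ± 0.35) and TNFSF10 (-0.33 ± 0.19), a death ligand, had negative uncalled values. Without control animals 1 and 3, UBE2L6 was no longer called (0.73 ± 0.25, edgeR adjusted p = 0.0774), while PARP9, PARP12, PARP14, BST2, TRIM22 and SP100 were.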
